A study of Mus musculus with 4 samples.

Results

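Interferon-stimulated genes are the genes that cells switch on when an interferon binds its receptor, and a list of 41 of them is described here in EGFP+ cells recovered from mouse bone marrow. Each was taken by its gene symbol, and all 41 were present among the 23284 symbols of the 4 deposited expression tables. The donor cells were LSK cells (Lin− Sca1+ c-Kit+, the marrow fraction that holds hematopoietic stem and multipotent progenitor cells) from mice carrying EGFP under the CAG promoter, which is active in nearly all cell types. A dose of 100000 of them went into each wild-type recipient, EGFP+ marrow cells were sorted again 24 h later, and RNA was sequenced from 2 biological replicates per group. Control recipients had no treatment, and 5-FU recipients had been given 200 mg/kg of 5-fluorouracil, a pyrimidine analog that kills dividing cells, 2 days before the transplant. The labels name no strain, age or sex for the animals. The comparison asks how 5-FU conditioning of the recipient alters the transcripts of donor cells that reached its marrow.

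Type I interferons act through the receptor chains IFNAR1 and IFNAR2, which activate the kinases JAK1 and TYK2. STAT2 and IRF9 then act in a complex, ISGF3, that binds a DNA sequence called the interferon-stimulated response element (ISRE) in front of its target genes. Interferon gamma has its own receptor, and many of its targets carry another sequence, the gamma-activated site (GAS). Many targets are transcribed at a low level without infection, and their products sense foreign nucleic acid, block viral replication and control the pathway itself. In the marrow, acute interferon exposure is known to drive resting stem cells into division.

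The letters these factors read can be shown for members whose promoters are in the RefSeq table (build GRCm38.p6, which mm10 corresponds to). It held 31 of the 41 members. Each window ran from 250 bases before to 50 after an annotated start. The ISRE core was searched as GAAANNGAAA and the GAS core as TTCNNNGAA, on both strands. An ISRE core was found for 13 of 31 members (41.9%), against 3.99% of all 27025 genes in the table. A GAS core was found for 10 (32.3%), against 9.55%. ISRE cores overlap each other in Isg15, Oas1a and Bst2, and a GAS core overlaps an ISRE core in Bst2 and Ifitm3. The 140 bases before the start are printed 5′ to 3′ for 6 members, with ISRE cores in capitals, or in Isg20, which had none, the GAS core. Isg15, Ifit1 and Oas1a show repeated ISRE cores. Rsad2 combines a single core, read on the opposite strand, with a fall in transcripts. Bst2 has the cores and did not fall, and Isg20 had the largest fall of the members tested and only a GAS core in capitals.

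Isg15: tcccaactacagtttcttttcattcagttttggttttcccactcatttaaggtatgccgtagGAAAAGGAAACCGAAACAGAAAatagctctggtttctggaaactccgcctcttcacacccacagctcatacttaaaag
Ifit1: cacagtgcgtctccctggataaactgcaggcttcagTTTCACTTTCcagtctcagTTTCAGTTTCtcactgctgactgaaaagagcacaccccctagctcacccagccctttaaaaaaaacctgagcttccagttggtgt
Oas1a: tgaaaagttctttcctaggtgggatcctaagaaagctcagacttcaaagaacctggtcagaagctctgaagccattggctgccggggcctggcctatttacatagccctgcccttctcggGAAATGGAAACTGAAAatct
Rsad2: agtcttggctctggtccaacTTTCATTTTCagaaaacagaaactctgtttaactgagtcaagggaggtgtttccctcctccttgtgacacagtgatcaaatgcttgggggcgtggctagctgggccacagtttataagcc
Bst2: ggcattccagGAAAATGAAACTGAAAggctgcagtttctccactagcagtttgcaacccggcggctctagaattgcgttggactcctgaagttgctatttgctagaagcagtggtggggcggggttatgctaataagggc
Isg20: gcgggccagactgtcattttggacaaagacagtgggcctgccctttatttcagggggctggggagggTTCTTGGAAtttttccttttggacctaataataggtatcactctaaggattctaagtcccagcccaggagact

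These stretches lie at chr4:156200819-156200958 (minus strand), chr19:34640749-34640888 (plus), chr5:120907526-120907665 (minus), chr12:26456453-26456592 (minus), chr8:71537473-71537612 (minus) and chr7:78913284-78913423 (plus, the first of 3 annotated starts). In Isg15 the 3 overlapping cores ran from base −78 to −57 before the start. In Ifit1, on the opposite strand, they began at −104 and −85, and in Oas1a they ended at −5. These positions count from the start used for the window. The annotated gene span of Oas1a reaches 120907544, and that of Isg20 begins at 78913396. The end of either stretch thus lies inside the gene span, with most letters of the Oas1a cores. A match describes these letters and does not show binding.

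**Figure D1:**
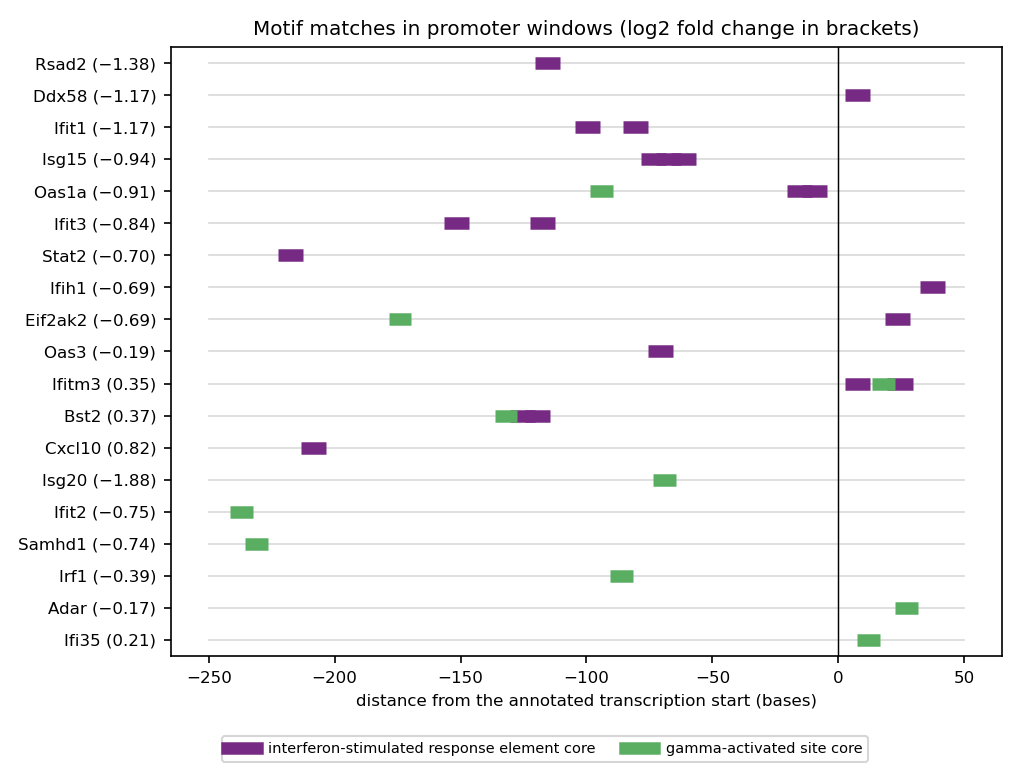
Position of each motif match (x axis, bases from the annotated transcription start) in the 19 members with at least 1 match in any annotated promoter window. The log2 fold change of the gene is in brackets, purple bars are ISRE cores, green bars GAS cores, and the ISRE cores of 9 of the 13 members lie before the start.

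Libraries of both groups held transcripts that mark the labelled cell type, hematopoietic stem and progenitor cells, and transcripts that mark other cells. The progenitor genes Kit and Cd34 had 65.5 to 103 and 115.9 to 264 FPKM (fragments per kilobase of transcript, scaled to sequencing depth), and Ly6a, which encodes Sca1, 17.0 to 54.0. The macrophage gene C1qa, a complement subunit, had 594 to 1178. In bulk samples such as these, fewer cells of a type and less RNA per cell cannot be told apart. In genes of low expression, values stepped in multiples of what 1 read is worth. That worth, for a transcript of 1 kb, was about 0.142 and 0.137 FPKM in control libraries 1 and 2 and 0.118 and 0.111 in 5-FU libraries 1 and 2. Members under about 1 FPKM therefore rest on few reads.

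In cells from 5-FU-treated marrow, interferon-stimulated genes were mostly lower than in cells from untreated marrow. Isg20, an exonuclease that degrades viral RNA, Ifi44, the RNA sensor gene Ddx58 and Oas2 were among 7 of 40 tested members that fell, and 0 rose. Of all 11496 genes tested, 4.67% were lower and 8.23% higher by the same call (limma, adjusted p under 0.05), against 17.5% and 0 of these members. The log2 fold change was negative for 36 of the 40, with a median of −0.74, against −0.01 over all genes. The number of calls depends on single libraries, for the members and over all tested genes. It fell without either control library, where no member call held, and rose in both directions without either 5-FU library. The members' median was −0.68 and −0.77 without control libraries 1 and 2, and −0.92 and −0.53 without 5-FU libraries 1 and 2. With all 4 libraries no member had an unadjusted p under 0.05 in limma in the upward direction.

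Both 5-FU libraries lay below both control libraries for 33 of the 40 tested members, and for 30.7% of all tested genes. Only Ifi35 had both 5-FU libraries above both control libraries, a pattern of 31.4% of all tested genes. The untested member, Oasl1, was under the filter of 1 FPKM in at least 2 libraries. Over all 41 members the median level was 16.9 and 13.5 FPKM in control libraries 1 and 2 and 9.35 and 7.46 in 5-FU libraries 1 and 2. The number above 10 FPKM went from 29 in either control library to 19 and 17.

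**Figure D2:**
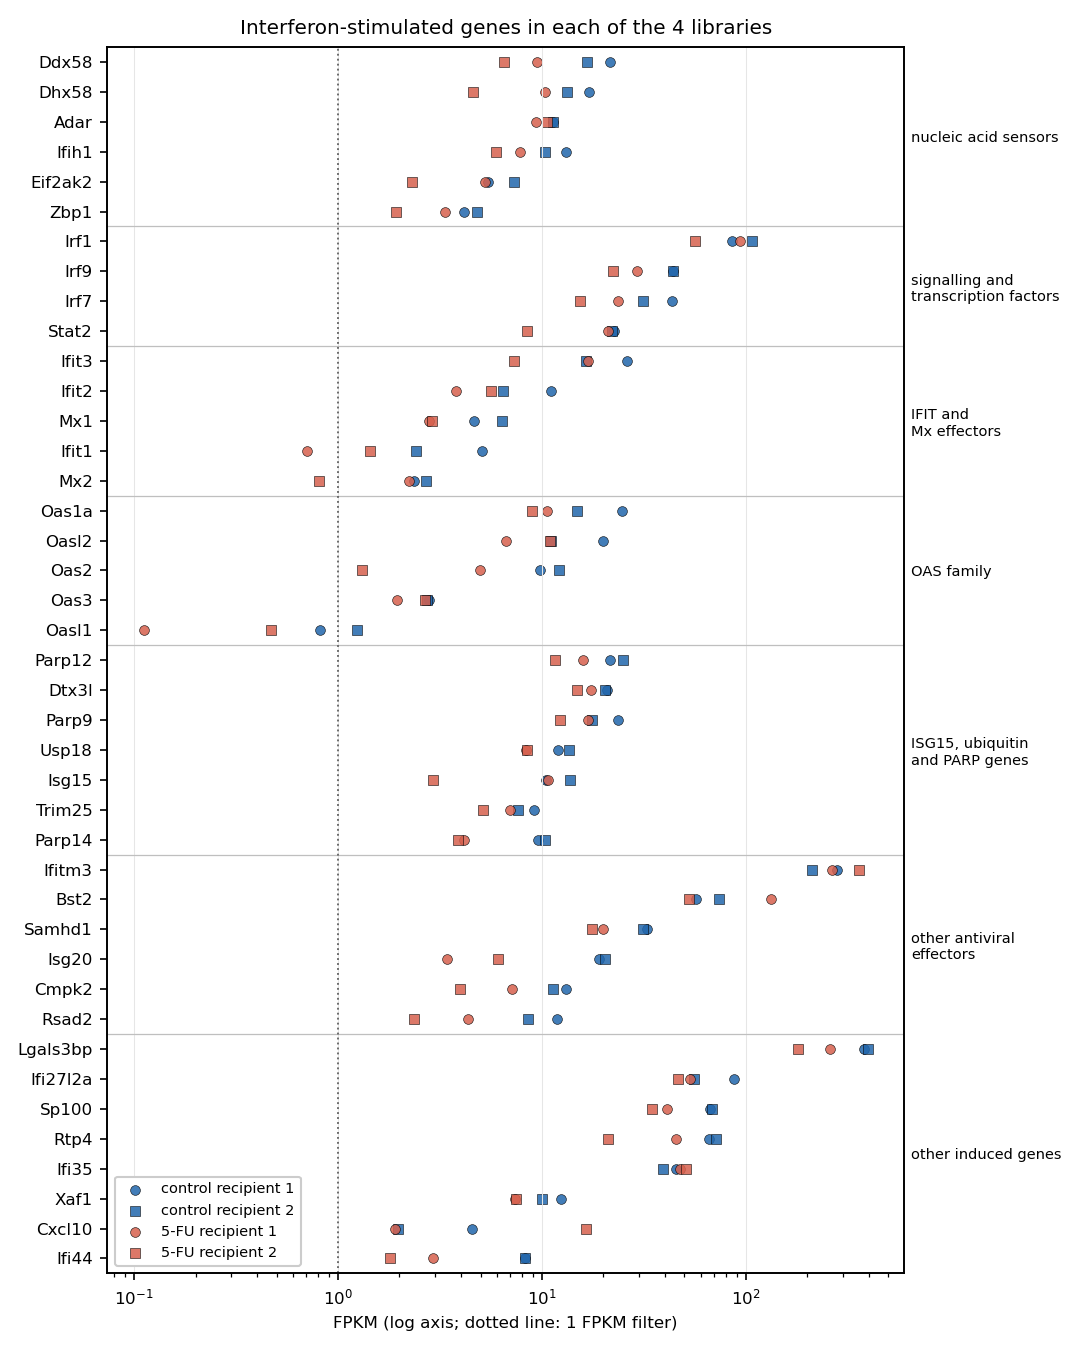
FPKM (x axis, log scale) of the 41 members in each library, grouped by role. Blue symbols are the 2 control libraries and red symbols the 2 5-FU libraries. The red symbols lie left of both blue ones for most genes, and Ifi35, Bst2, Ifitm3 and Cxcl10 are the exceptions with a higher 5-FU mean.

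Markers of other cells moved between the same groups. Summed over a list of 20 macrophage markers, the level was 28501 and 33514 FPKM in the control libraries and 25238 and 13914 in 5-FU libraries 1 and 2. In that list 4 of 20 fell, 0 rose, the median log2 fold change was −0.94, and none was at 0 in a whole library. Adgre1, which encodes the macrophage antigen F4/80, had 211 and 264 FPKM in control libraries against 169 and 84.9 in 5-FU libraries 1 and 2. Csf1r, the M-CSF receptor, fell by 1.27 on the log2 scale (SE 0.27, adjusted p = 0.027). Neutrophil markers had a list median of −1.48 (5 of 10 lower) and B cell markers one of −1.43 (5 of 8 lower). Erythroid markers had the lowest median of the marker lists, −2.39 (6 of 7 lower), with the globin gene Hba-a2 at −4.33. A marker of monocytes, the chemokine receptor gene Ccr2, rose from 3.58 and 4.96 FPKM in control libraries to 10.7 and 17.6 (1 of 6 higher, adjusted p = 0.027). The monocyte list as a whole did not rise: its median was −0.21, and 4 of the 6 tested genes were negative. Among T and NK cell markers the granule gene Nkg7 rose by 1.26 on the log2 scale (1 of 4 higher, adjusted p = 0.028). The other tested genes of that list, Cd3g, Klrb1c and Ncr1, overlapped between groups (−0.11, 0.27 and 0.15). Of its 10 genes only these 4 reached the filter. For genes induced by tissue dissociation and handling the median was −1.17 (8 of 15 lower), while markers of stem and progenitor cells had a median of 0.03 (1 of 12 higher, Ly6a). Many interferon-stimulated genes are expressed in macrophages and neutrophils as well as in progenitors. The part of these shifts in the lower member values was not tested.

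The sensors of foreign nucleic acid come first in the pathway. Ddx58 encodes RIG-I, which binds viral RNA ends, and lies on chromosome 4 at 40203777 to 40239825 (GRCm38.p6, as for all positions here). It had 21.6 and 16.6 FPKM in control libraries 1 and 2 and 9.45 and 6.48 in 5-FU libraries 1 and 2. The groups did not overlap, and the log2 fold change was −1.17 (SE 0.28, adjusted p = 0.035). Without control library 1 it was −0.99 (adjusted p = 0.26) and without control library 2 it was −1.35 (adjusted p = 0.14). The other 5 sensor genes did not pass, although each had both 5-FU values under both control values. Dhx58, which encodes the RIG-I relative LGP2, had 16.9 and 13.3 FPKM in control libraries against 10.3 and 4.61 in 5-FU libraries (log2 fold change −1.01, SE 0.36, adjusted p = 0.11). Ifih1, which encodes MDA5, a sensor of long double-stranded RNA, had 13.1 and 10.3 against 7.79 and 5.92. Those 2 genes were lowest in 5-FU library 2, as was Eif2ak2 (the kinase PKR, which halts translation), with 5.44 and 7.33 against 5.28 and 2.30. Zbp1, a sensor of Z-form nucleic acid, was 1 of the 5 members of lowest level and had 4.16 and 4.81 FPKM against 3.36 and 1.92 (log2 fold change −0.62, SE 0.33, adjusted p = 0.24). Adar, an enzyme that edits double-stranded RNA, was the most even of the group, with 11.3 FPKM in both control libraries and 9.35 and 10.5 in 5-FU libraries 1 and 2 (log2 fold change −0.17, SE 0.24).

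None of the 4 signalling and transcription factor genes passed, and all 4 had negative fold changes. Irf9, the DNA-binding subunit of ISGF3, had 43.7 and 43.9 FPKM in control libraries against 29.3 and 22.2 in 5-FU libraries (log2 fold change −0.76, SE 0.21, adjusted p = 0.057). Irf7, which amplifies type I interferon production, had 43.7 and 31.4 against 23.6 and 15.4 (−0.92, SE 0.27, adjusted p = 0.065). For both genes the groups were separate. Stat2, the ISGF3 subunit that carries the activation domain, had 22.7 and 22.02 FPKM in control libraries and 21.0 in 5-FU library 1, so the lower 5-FU mean came mostly from library 2, at 8.42. Irf1, an early activator induced by interferon gamma and 1 of the 5 members of highest level, overlapped between groups. It had 86.0 and 106.8 FPKM in control libraries against 94.1 and 56.1 in 5-FU libraries (log2 fold change −0.39, SE 0.27, adjusted p = 0.36).

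Among genes of the 2′-5′ oligoadenylate synthetase family, whose active enzymes lead to RNase L activation, Oas2 fell. It had 9.79 and 12.2 FPKM in control libraries against 4.96 and 1.31 in 5-FU libraries 1 and 2, on chromosome 5 at 120730333 to 120749886. Library 2 was the lower of the 5-FU pair by a ratio of 3.79. The log2 fold change was −1.68 (SE 0.45, adjusted p = 0.048), −1.0 without 5-FU library 2 and −2.37 without 5-FU library 1. The call held in 8 of 15 alternatives, the fewest of the 7 members that fell. It was lost without control library 1 or 2 (adjusted p = 0.13 and 0.20), with a pseudocount of 0.1, with no filter, with quantile or TPM scaling, and without a variance trend (adjusted p = 0.057 to 0.17 in these 5). Its neighbour Oas3, 3211 bases away, had 2.80 and 2.72 FPKM against 1.94 and 2.67 (−0.19, SE 0.31, adjusted p = 0.71). Oas1a had 24.6 and 14.9 against 10.6 and 8.89, groups that did not overlap (−0.91, SE 0.29, adjusted p = 0.076). Oas1a is very similar to the adjacent copy Oas1g, so reads may be shared and its value is uncertain. Oasl2 had 19.9 and 11.1 FPKM in control libraries against 6.66 and 10.95, where 5-FU library 2 reached almost the level of control library 2. Oasl1, known to restrain IRF7 translation, was the lowest member: 0.815 and 1.24 FPKM in control libraries against 0.111 and 0.468 in 5-FU libraries. From its transcript length these correspond to roughly 13, 20, 2 and 9 reads.

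Of the IFIT genes, whose proteins bind viral RNA that lacks host cap marks, and the Mx genes, whose dynamin-like GTPases trap viral particles, none of 5 passed. All 5 fold changes were negative, from −1.17 to −0.55. Ifit1, 1 of the 5 lowest members, had 5.09 and 2.42 FPKM in control libraries against 0.702 and 1.43 in 5-FU libraries (log2 fold change −1.17, SE 0.39, adjusted p = 0.089). Control library 1 was the highest library for Ifit1, Ifit2 and Ifit3, which lie side by side on chromosome 19. Ifit3 had 26.0 and 16.5 FPKM in control libraries against 16.8 and 7.29 in 5-FU libraries, the 1 gene of the 5 whose groups overlapped, and Ifit2 had 11.1 and 6.46 against 3.79 and 5.62. Ifit3 is closely similar to Ifit3b, so its value is uncertain. Mx1 had 4.64 and 6.38 FPKM in control libraries against 2.81 and 2.89 in 5-FU libraries (adjusted p = 0.14). Mx2, also among the 5 lowest, had 2.35 and 2.71 against 2.22 and 0.810 (−0.55, SE 0.37, adjusted p = 0.35), low in 5-FU library 2 alone.

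In the group of ISG15, its partners and the ADP-ribosyltransferases, Parp14 fell and the other 6 did not pass. Parp14, an enzyme that modifies proteins with single ADP-ribose units, lies on chromosome 16 at 35831892 to 35871518. Its values were 9.52 and 10.3 FPKM in control libraries against 4.15 and 3.86 in 5-FU libraries. Both pairs were tight and far apart (log2 fold change −1.12, SE 0.26, adjusted p = 0.035). Fold changes of its neighbours were nearer to 0, and neither passed. Dtx3l, a ubiquitin ligase, had 20.8 and 20.5 against 17.4 and 14.8 (−0.34, SE 0.22, adjusted p = 0.33), and its partner Parp9 23.7 and 17.5 against 16.7 and 12.3 (−0.48, SE 0.26, adjusted p = 0.25). The difference between Parp14 and these neighbours was not tested. Dtx3l and Parp9 overlap by 558 bases on opposite strands, and strand was not stated for the counting, so reads there cannot be assigned. Isg15 itself, a ubiquitin-like tag joined to proteins, had 10.5 and 13.7 FPKM in control, 10.7 in 5-FU library 1 and 2.91 in library 2. Library 1 thus lay inside the control range, and the log2 fold change of −0.94 had an SE of 0.48 (adjusted p = 0.23). Usp18, which removes ISG15 and restrains receptor signalling, had 12.0 and 13.5 against 8.39 and 8.48 (−0.54, SE 0.24, adjusted p = 0.17). Parp12 had a fold change of −0.73, and Trim25, a ubiquitin ligase that acts on RIG-I, one of −0.42.

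Among the effectors that act on nucleotides and RNA, Isg20 and Rsad2 fell. Isg20 (chromosome 7 at 78913396 to 78920396) had 19.1 and 20.3 FPKM in control libraries against 3.42 and 6.10 in 5-FU libraries 1 and 2. The groups were far apart, with means of 19.7 ± 0.877 and 4.76 ± 1.90 (SD, n = 2 each), a ratio of 4.13. Its log2 fold change was −1.88 (SE 0.30, adjusted p = 0.014). Rsad2, which encodes viperin, a maker of a chain-terminating nucleotide, lies on chromosome 12 at 26442743 to 26456452. It had 11.8 and 8.51 FPKM in control libraries against 4.32 and 2.37 in 5-FU libraries. These did not overlap either (log2 fold change −1.38, SE 0.33, adjusted p = 0.037). Cmpk2, a nucleotide kinase gene 12664 bases from Rsad2, had 13.1 and 11.4 against 7.15 and 3.98 (−1.06, SE 0.31, adjusted p = 0.064). Samhd1, which breaks down deoxynucleotides, had 32.6 and 31.3 FPKM in control libraries against 19.9 and 17.6 in 5-FU libraries, separate and close within each pair (−0.74, SE 0.21, adjusted p = 0.054).

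The membrane effectors Ifitm3 and Bst2 had positive fold changes, and neither passed with all 4 libraries. Ifitm3, which blocks viral fusion, had 278 and 211 FPKM in control libraries against 264 and 359.8 in 5-FU libraries (log2 fold change 0.35, SE 0.25, adjusted p = 0.37). Without 5-FU library 1 its fold change was 0.57 (adjusted p = 0.041), and without library 2 it was 0.12 (adjusted p = 0.71). Bst2, which encodes tetherin and tethers budding virus, had 56.9 and 73.8 against 133 and 52.8. Its higher 5-FU mean rests on library 1. Its fold change of 0.37 (SE 0.39, adjusted p = 0.57) was −0.29 without that library (adjusted p = 0.29) and 1.03 without library 2 (adjusted p = 0.0070). Both are among the 5 members of highest level.

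The remaining induced genes included Ifi44 and Sp100, which fell. Ifi44, an interferon-induced protein of poorly known function on chromosome 3 at 151730922 to 151749910, had 8.24 and 8.26 FPKM in control libraries against 2.92 and 1.81 in 5-FU libraries. The control values were nearly equal, and the log2 fold change was −1.48 (SE 0.30, adjusted p = 0.024). Sp100, a component of PML nuclear bodies on chromosome 1 at 85649948 to 85709998, had 66.9 and 68.2 against 41.3 and 34.8 (−0.82, SE 0.19, adjusted p = 0.036). This was the smallest change among the 7 that fell. Lgals3bp, a secreted glycoprotein that binds galectin 3, was the highest member, at 379 and 396 FPKM in control libraries against 259.6 and 179.6 in 5-FU libraries (−0.84, SE 0.24, adjusted p = 0.056). Rtp4, which encodes a receptor transport protein, had 66.3 and 71.6 against 45.5 and 21.0 (−1.13, SE 0.33, adjusted p = 0.064). For both genes the groups were separate, and 5-FU library 2 was the lower. Ifi27l2a, a mitochondrial protein gene of high level, had 87.8 and 55.5 against 53.1 and 46.5 (−0.48, SE 0.25, adjusted p = 0.23). Xaf1, a partner of the apoptosis inhibitor XIAP, had 12.4 and 10.01 against 7.403 and 7.46 (adjusted p = 0.20). Ifi35 had 45.4 and 39.4 FPKM in control libraries against 47.4 and 51.1 in 5-FU libraries (0.21, SE 0.19, adjusted p = 0.49).

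Cxcl10, the chemokine of the list and a ligand of CXCR3 on T and NK cells, was the most uneven member. It had 4.52 and 1.97 FPKM in control libraries, 1.91 in 5-FU library 1 and 16.5 in 5-FU library 2. Its log2 fold change of 0.82 had an SE of 0.76 (adjusted p = 0.50). Without 5-FU library 1 it was 2.12 (adjusted p = 0.0031), and without 5-FU library 2 it was −0.47.

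**Figure D3:**
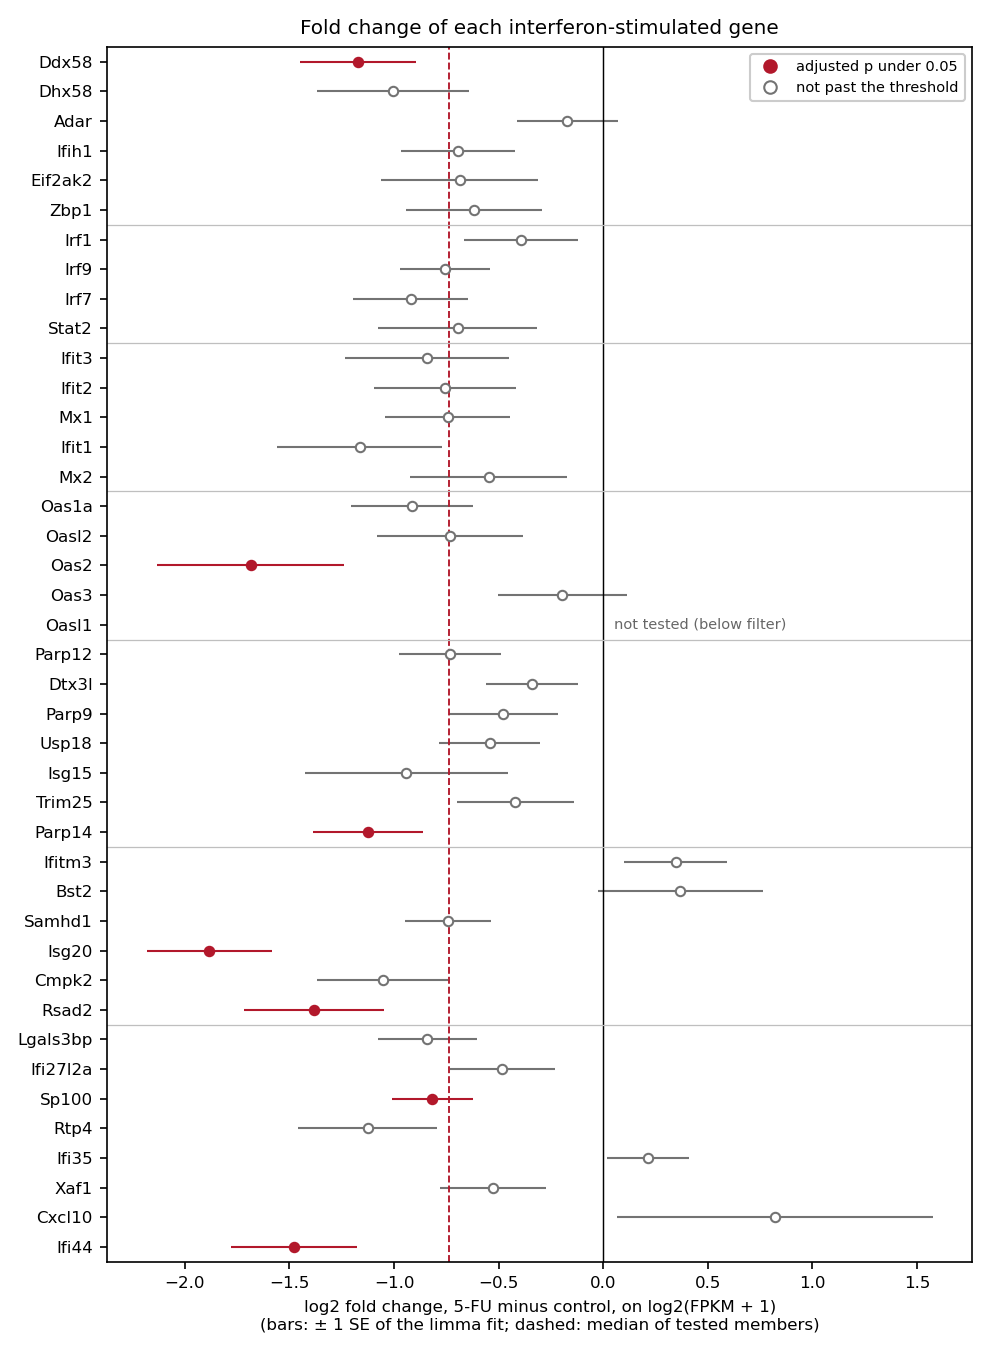
Log2 fold change (x axis, 5-FU minus control on log2(FPKM + 1)) of each tested member, by role, with bars of 1 SE from limma. Filled red points are the 7 members with an adjusted p under 0.05, all to the left of 0, and the dashed line is the members' median of −0.74.

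The 5-FU libraries differed from each other more than the control libraries did. The members' median absolute difference on the log2(FPKM + 1) scale was 0.48 between the 5-FU libraries and 0.29 between the control libraries, against 0.35 and 0.21 over all tested genes. Between 5-FU libraries 12 members were more than 2-fold apart, and between control libraries 2 were (Ifit1 and Cxcl10). Of the 12, Isg15, Oas2, Mx2, Bst2, Stat2, Ifit3, Eif2ak2, Dhx58 and Rtp4 were higher in library 1, by ratios of 2.17 to 3.79. Cxcl10, Oasl1 and Ifit1 were higher in library 2, by 8.64, 4.21 and 2.04. Library 2 was the lowest of all 4 libraries for 28 of 41 members and library 1 for 11. The median difference of library 2 from library 1 was −0.38 for the members and 0.03 for all tested genes. The summed markers of macrophages, monocytes, neutrophils, B cells and stromal cells were also lowest in 5-FU library 2. Those of dendritic cells, erythroid cells and stem and progenitor cells were lowest in 5-FU library 1, and those of T and NK cells in control library 2.

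Members with and without an ISRE core were set side by side. Of the 13 with a core, Ddx58 and Rsad2 fell, the median log2 fold change was −0.70 and the values ran from −1.38 to 0.82. Of the 17 tested members in the table without a core, 3 fell (Isg20, Ifi44 and Sp100), with a median of −0.74 and values from −1.88 to 0.21. Oas2 and Parp14 were not in the table. The 3 members with positive fold changes other than Ifi35 all had an ISRE core. Of the 41 members, 14 lie within 100 kb of another.

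Outside the members, other genes of the pathway were taken from 6 lists. Interferon genes themselves were at or near 0. Of 21 interferon genes, 20 were listed at 0 in all 4 libraries, among them Ifnb1 and Ifng, and Ifna4 had 0.229 FPKM in 5-FU library 2 and was listed at 0 in the others. In the remaining 5 lists 12 of 106 tested genes fell and 0 rose (1 with an unadjusted p under 0.05 upwards), against the 4.67% and 8.23% of all tested genes. The count of lower genes fell without either control library, where no call held, and rose without either 5-FU library. Lower calls over all tested genes fell and rose in the same fits.

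Receptor and kinase genes were lower in both 5-FU libraries for 8 of 9 tested, and 3 fell. Ifnar1, a chain of the type I receptor, had 20.6 and 23.4 FPKM in control libraries against 12.2 and 11.01 in 5-FU libraries (log2 fold change −0.86, SE 0.22, adjusted p = 0.046). Ifngr1, the ligand-binding chain of the interferon gamma receptor, had 292 and 306 against 165 and 149.7 (−0.92, SE 0.19, adjusted p = 0.024), and the kinase gene Jak1 88.6 and 90.3 against 56.3 and 54.7 (−0.68, SE 0.18, adjusted p = 0.049). All 3 pairs were tight and separate. Ifnar2 was at −0.66 (adjusted p = 0.057) and Ifngr2 at −0.66 (adjusted p = 0.065). Tyk2 overlapped between groups, with 4.59 and 7.84 against 9.20 and 3.29 (−0.09, SE 0.45, adjusted p = 0.91).

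Of 20 tested genes that lead to interferon production 4 fell. They were Tlr7, a receptor for single-stranded RNA, at −1.16, Unc93b1, its chaperone, at −1.38, Mavs, the adaptor of RIG-I, at −0.88, and Irf5, at −0.92 (adjusted p = 0.029, 0.035, 0.044 and 0.046). Unc93b1 had 452 and 519.6 FPKM in control libraries against 263 and 130.3 in 5-FU libraries. Irf8 was at −0.63 (adjusted p = 0.10) and Irf3, the factor activated first by these sensors, at 0.20 (adjusted p = 0.57). Among 48 other type I induced genes 5 fell, namely Epsti1 (−0.88), Ube2l6, the ISG15-conjugating enzyme (−0.79), Trim30d (−1.33), Trim34a (−1.05) and Ifitm6 (−1.02). That list had a median of −0.46. None of 13 negative regulators (median −0.32) and none of 16 genes of the interferon gamma list (median −0.29) passed in limma, with 3 and 4 at an unadjusted p under 0.05, all lower. A difference in change between the members and these lists was not tested.

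**Figure D4:**
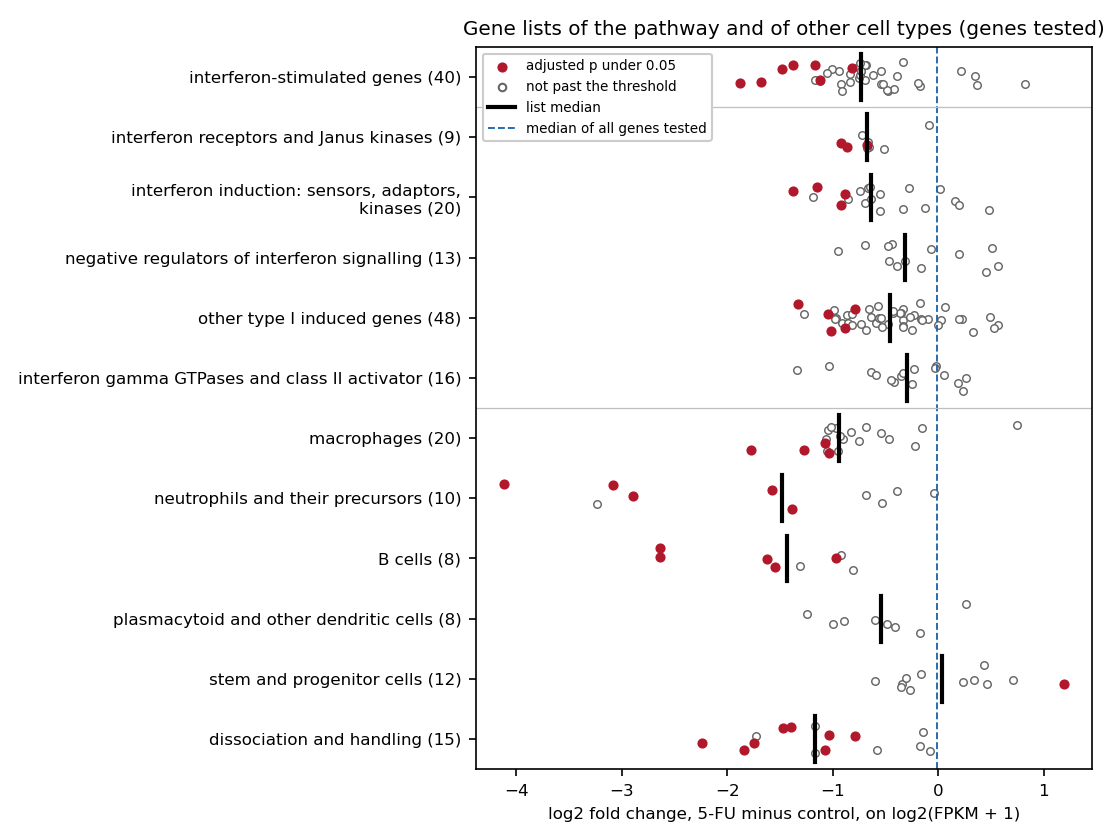
Log2 fold change (x axis) of every tested gene in the members' list, 5 pathway lists, 5 lists of cell type markers and the handling list, with the number tested in brackets. Red points have an adjusted p under 0.05, black bars are list medians and the dashed line is the median of all tested genes. Of the list medians shown, those nearest to the members' −0.74 on either side are of the macrophage markers (−0.94) and the receptor and kinase genes (−0.68). The other type I induced genes had −0.46.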

How the data were processed

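RNA was read as 75 bp single ends from 4 libraries, 2 per group. Per the submitters' processing notes, TopHat2 2.0.13, Bowtie2 2.2.3, SAMtools 0.1.19 and Cuffnorm 2.2.1 were used with mm10. The deposited values are FPKM. Annotation, Cuffnorm's normalization setting and read depth were not stated in the labels, headers or notes. The columns of the 5-FU tables are headed by another day number than the file names, and groups follow the labels. FPKM removes transcript length, so levels of different genes can be set side by side. A shift in all genes between libraries would be lost in it.

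Values were used as log2(FPKM + 1) and 11496 genes entered the test, each reaching 1 FPKM in 2 or more libraries. The test of 5-FU against control was two-sided, from limma 3.58.1 (R 4.3.3) with a mean-variance trend. P-values were adjusted by Benjamini and Hochberg's method over the 11496 genes, and the threshold was 0.05. Fold changes on this scale understate the change of low genes. An exact permutation test on 2 against 2 libraries cannot go below p = 0.333 and was not used. The labels call the replicates biological, which is the spread the test uses. The sample titles do not say whether a library came from 1 recipient or from several. The fit was tested on simulated data. Figures used matplotlib 3.10.9.

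The members and lists were chosen with earlier results of these data known. All 41 members are described, in full where they passed or were among the 5 highest or lowest by mean FPKM. From other lists the genes that passed (at most 6 per pathway list) and a fixed set of receptors and factors are named. 1 gene of that set is not reported here. Bst2, Cxcl10 and others that differ between 5-FU libraries were singled out after their values were seen. Of 251 other list genes, 238 matched by symbol, 8 by 1 RefSeq synonym and 5 not at all. Of the members, 11 share exonic bases with a gene on the opposite strand (GENCODE M21), and 4 others (Parp14, Sp100, Irf9 and Rtp4) with a gene on the same strand. Their values are uncertain to that extent. The labels number replicates 1 and 2 in either group without saying that a number links them. The alternatives were 2 pseudocounts, 2 filters, 3 scalings, 2 variance models, a replicate block and leaving out each library.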

Additional observations from a re-analysis of the deposited data

How the results depend on the processing

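The members' median log2 fold change kept its sign under all 14 alternatives and 1 added later, from −0.92 (without 5-FU library 1) to −0.53 (without 5-FU library 2). Of the members, 7 were lower as reported, 0 with no filter on low values (limma, 17 at an unadjusted p under 0.05), 4 without a mean-variance trend, and 0 to 22 with 1 library left out; the members called higher were then 0 to 2. The lower counts of 0 came without control library 1 or 2 (8 and 17 at an unadjusted p under 0.05). Without a library its group has 1 sample, assumed to vary like the other group. In the pathway lists 12 genes were lower as reported, 0 with no filter (38 unadjusted), 1 without a trend and 0 to 48 with 1 library left out, with 0 to 3 higher. The no-filter fit tests 16391 genes, and the cause of these shifts, with no filter or otherwise, was not tested. Over all genes the lower calls were 4 with no filter and 299 without a trend, against 537. Bst2 and Cxcl10 changed sign with a library left out, between −0.29 and 1.03 and between −0.47 and 2.12. Deviations of same-numbered libraries were weakly and inversely correlated (r = −0.16 across genes). With the replicate block 8 members were lower, 6 of them among the 7, and 10 pathway genes. With crossed numbers, an alternative chosen after seeing the data, 19 members and 36 pathway genes were lower. Of all tested genes 4.69% were lower with the replicate block and 11.9% with crossed numbers. A read was worth more in the control libraries, and members near 1 FPKM, such as Oasl1 and Ifit1, are limited by depth.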
